A study of Zea mays with 15 samples.

Results

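In the growing maize leaf, 150 genes kept their transcript level over the first 2 cm from the leaf base in control plants and fell at least 3-fold in the next centimetre. They were selected on their levels in control libraries alone, out of 39145 genes. For each gene, reads were summed over its transcripts and expressed as counts per 1000000 reads of the library (CPM). With 1 added to each zone mean, the zone 2 mean had to be at least 10, the ratio of zone 1 over zone 2 had to lie from 0.67 to 1.5, and the ratio of zone 2 over zone 3 had to be at least 3. The lowest control zone 2 library also had to lie above the highest control zone 3 library. Of 13763 genes with the required zone 2 level, 4.8% met the conditions on zone 3, 223 met all conditions, and the 150 with the highest ratio of zone 2 over zone 3 are described here. The control values that chose these genes are given as a description, without a test.

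RNA came from leaf 4 of the inbred line B73, sampled 3 days after the leaf emerged from plants grown outdoors under plastic filters. UV-B plants received 1.5 W/m2 of UV-B at noon under their sheet. Control plants received 0.35 W/m2 under a sheet that absorbs it, and UV-A was 8 W/m2 under either. Zone 1 was 0 to 1 cm, zone 2 was 1 to 2 cm and zone 3 was 2 to 3 cm from the leaf base. The UV-B zones 1, 2 and 3 had 1, 3 and 3 libraries, and the control zones 1, 2 and 3 had 3, 2 and 3. UV-B zone 3 replicate 1 held only 728 reads and was left out of all levels and of the main tests, so that UV-B zone 3 rests on replicates 2 and 3. The other 14 libraries had 1673416 to 19221143 reads, with the lowest depth in UV-B zone 3 replicate 3. The replicates are separate samples in the labels, and p-values measure the spread between these samples. A segment is a mixture of cells, so fewer cells of a type and less RNA per cell cannot be told apart.

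A grass leaf grows from its base. Cells divide in the lowest part, are pushed outward by new cells below them, and then stop dividing and elongate. Genes of the DNA synthesis phase supply histones, deoxynucleotides and the replication machinery, while cyclins and tubulins take part in mitosis and the division of the cell. Photosynthesis genes come on later, as cells leave the growth zone and turn green.

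Only 19 of the 150 genes had an informative symbol, through 112 matches to RefSeq gene records, so 131 are known here by identifier only. The 19 comprised 5 histone genes, 3 genes of DNA replication, 3 chromatin factors, 2 cyclins, 2 beta-tubulins, 2 transcription factors, 1 cellulose synthase-like gene and rdr6. No gene of the lists for ribosomal proteins, photosynthesis, expansins, aquaporins, actin and myosin, growth-regulating factors, hormones, defence, stomata or secondary walls was among them. Members made up 0.383% of all genes and these lists held 18 to 84 genes each, so no member in a list is near that share. Genes without a symbol could not be in any list. The genes lay on all 10 chromosomes, with 26 on chromosome 1 and 10 each on chromosomes 7 and 8. The members were of ordinary size. Their longest transcripts had a median of 1889 bases, against 1899 bases over the 13885 genes with a comparable UV-B zone 2 level (mean plus 1 of at least 10 CPM). The members were not held to that UV-B level, and some, such as rdr6, lay below it. Reads assigned to a single transcript made up under 10% of the counts in 49 of the 150 genes and all of them in 64. Where that share is low, reads are shared among transcripts of the gene or with relatives, and the value of the single gene is less certain.

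Control levels were nearly flat over zones 1 and 2 and dropped steeply in zone 3. The median over the 150 genes was 49.5, 52.0 and 55.0 CPM in control zone 1 replicates 1 to 3, and 42.6 and 40.8 CPM in control zone 2 replicates 2 and 3. In control zone 3 replicates 1 to 3 it was 5.98, 10.5 and 5.54 CPM, so the transcripts were reduced rather than absent. The median control ratio was 1.28 for zone 1 over zone 2 and 4.43 for zone 2 over zone 3, with a highest value of 15.3.

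The values at the thresholds show how the set was bounded. The last gene in rank, GRMZM2G133895, had control means of 95.1, 83.4 and 23.7 CPM in zones 1, 2 and 3 and a ratio of 3.42. The first gene left out by rank, AC234185.1_FG004, had 54.4, 36.5 and 10.05 CPM and a ratio of 3.39. Just under the ratio of 3 lay GRMZM2G076128 at 2.99. The highest ratio of zone 1 over zone 2 was 1.499 in GRMZM2G031043, and GRMZM2G144504 fell outside at 1.504. The lowest zone 2 mean inside was 9.03 CPM in GRMZM2G100152, and GRMZM2G050741 fell outside at 8.88 CPM. The set therefore has no natural border on any of these scales.

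The UV-B libraries were not used in the choice and give a separate check. The same genes were again high in zone 2 and low in zone 3. Their median level was 51.9 CPM in UV-B zone 1 replicate 3, 32.0, 45.8 and 28.7 CPM in UV-B zone 2 replicates 1 to 3, and 10.3 and 2.99 CPM in UV-B zone 3 replicates 2 and 3. The median over the 13885 genes with a comparable zone 2 level stayed between 30.6 and 37.5 CPM in these 6 libraries. The lowest libraries for the members were thus both zone 3 libraries, and replicate 3 lay below replicate 2 in 124 of the 150 genes.

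**Figure D1:**
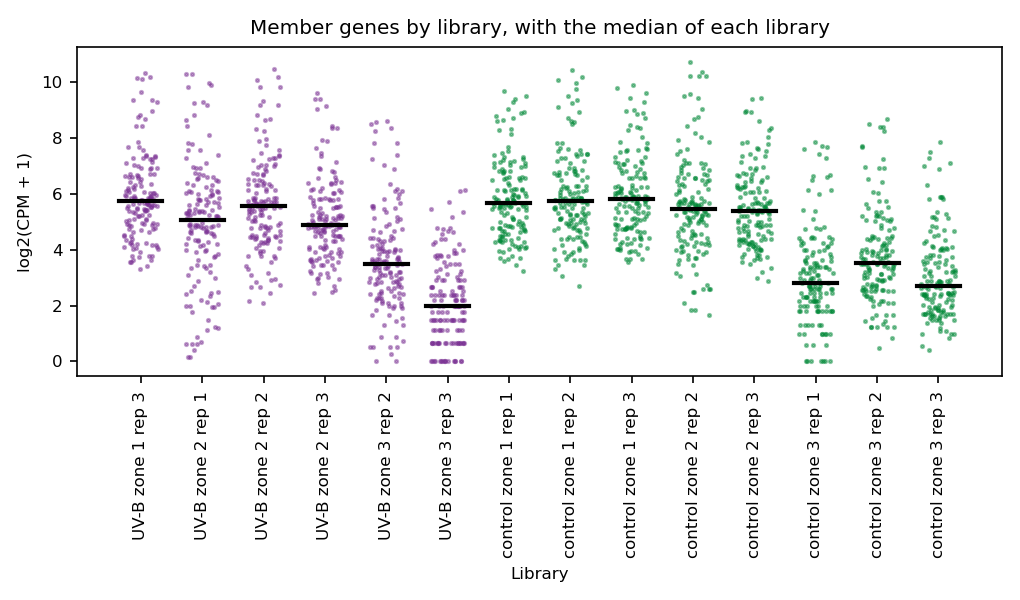
Level of the 150 genes in each library, as log2(CPM + 1) on the vertical axis, with UV-B libraries in purple left of control libraries in green; each point is 1 gene and each black line the median of the library. Medians fall to 10.3 and 2.99 CPM in the UV-B zone 3 libraries and to between 5.54 and 10.5 CPM in the control zone 3 libraries.

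In 125 of the 150 genes, all 3 UV-B zone 2 libraries lay above both usable UV-B zone 3 libraries, against 24% of the 13885 genes with a comparable level and 20.5% of the 23317 genes tested. The ratio of UV-B zone 2 over zone 3 was at least 3 in 124 of the 150 genes, against 4.02% of the 13885. On unique reads alone, 108 of the 150 had no overlap of these zones and 92 had the ratio of 3. Shares of all genes are not given for unique reads. The median ratio was 4.36 for the 150 genes and 1.07 for the 13885. Between libraries of the same replicate number, the UV-B zone 3 level was lower than the zone 2 level in 149 of 150 genes in replicate 2, with a median ratio of zone 2 over zone 3 of 3.99. It was lower in 150 of 150 in replicate 3, with a median ratio of 7.84. Over the 13885 genes the same median ratios were 1.10 in replicate 2 and 1.12 in replicate 3. Across the 150 genes, the control and UV-B ratios of zone 2 over zone 3 had a Spearman rho of 0.54, as a description of genes whose control ratios were all above 3 and that share the same libraries.

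A test on the 6 usable UV-B libraries, taken as unpaired between zones, called none of these differences after adjustment over all genes. All 150 genes passed the filter on low counts, edgeR's quasi-likelihood test with Benjamini-Hochberg adjustment called 0 of them at 0.05, and it called 0 of the 23317 genes tested (0% in either direction). The fitted log2 change of zone 3 against zone 2 was negative in 149 of the 150, with a median of -2.27 against -0.08 over all genes tested and a range of -4.77 to 0.08. At an unadjusted p under 0.05, 117 of the 150 were lower, against 9.17% of all genes tested. DESeq2 on the same libraries called 87 of the 150 lower and none higher, where 2.59% of the 23317 genes were called lower and 3.13% higher. A fit that also held the control libraries called 80 lower, against 3.5% of its genes, but its estimate of spread includes the libraries that chose the members. Same-numbered UV-B libraries of zones 2 and 3 correlated by 0.41 and 0.53. With 2 usable zone 3 libraries, whose deviations mirror each other, these are not separate checks. Replicates 1 to 3 stand for collection numbers 3, 4 and 7 in controls and 7, 8 and 9 under UV-B. The labels do not say what a shared number marks. With the number as a replicate block, 148 were called lower, against 14.5% of genes. That fit left almost no degrees of freedom, so its spread is poorly estimated. The absence of calls in the main test thus depends on the fit and not on pairing alone. DESeq2 also took the libraries as unpaired and called 87. The UV-B estimate rests on 2 zone 3 libraries of unequal level: the median log2 change was -3.91 without replicate 2 and -1.72 without replicate 3.

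Depth limits the values in zone 3. The 150 genes had a median of 48 reads in UV-B zone 3 replicate 2 and 5 reads in replicate 3, where 105 genes had fewer than 10 reads and 16 had none. A count of 0 in replicate 3 allows a level of up to 1.79 CPM (3 reads of 1673416, counting error only).

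**Figure D2:**
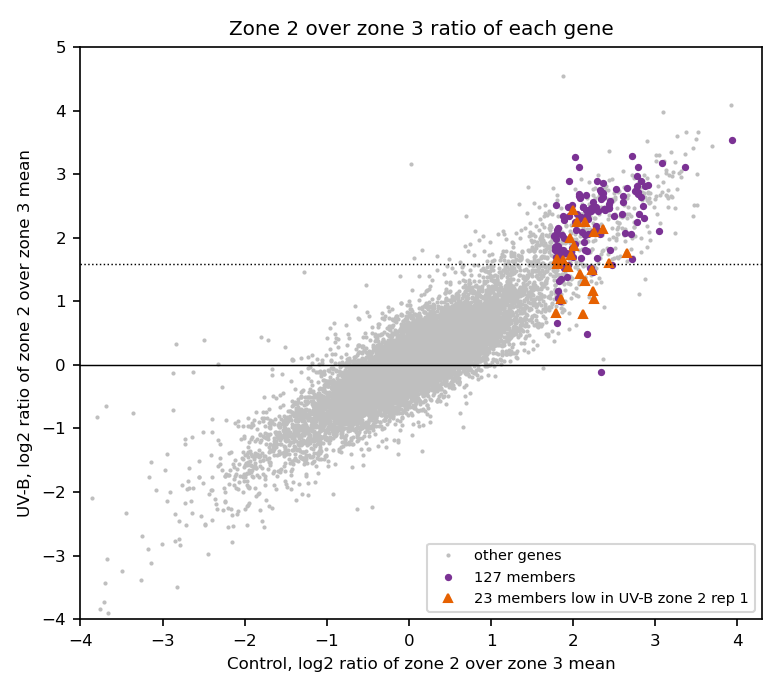
Log2 ratio of the zone 2 over the zone 3 mean (means plus 1 CPM) in UV-B libraries on the vertical axis, against the same ratio in control libraries on the horizontal axis; grey points are other genes with a comparable UV-B zone 2 level, and purple points and orange triangles are the 150 members. The dotted line marks a UV-B ratio of 3, which 124 of the 150 genes reach, and 1 gene lies below 0.

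The first element of the pattern, an even level over zones 1 and 2, held in part of the members under UV-B. In controls the rule itself held this ratio from 0.67 to 1.5, with a median of 1.28. The UV-B counts therefore do not show a difference between treatments. The ratio of UV-B zone 1 over zone 2 lay from 0.67 to 1.5 in 79 of the 150 genes, against 62.4% of the 13885 genes with a comparable level. By CPM the members thus met this condition no more often than other genes. With TMM-scaled library totals 101 members met it, and the share of other genes is not given on that scale. The ratio was above 1.5 in 70 genes and below 0.67 in 1, with a median of 1.48 against 1.05 over the 13885. Most departures were thus toward a lower level in zone 2. The fitted log2 change of UV-B zone 2 against zone 1 was negative in 125 of the 150 genes and positive in 25. Its median was -0.41, against 0.02 over all genes tested. UV-B zone 1 is 1 library, and the zone 2 libraries differ: its replicate 3 exceeded zone 2 replicate 3 by a median ratio of 1.75 and zone 2 replicate 2 by 1.15. Over the 13885 genes, the median ratio of zone 1 over zone 2 in replicate 3 was 0.99. Without UV-B zone 2 replicate 2, 52 genes kept within the range. The edgeR fit of UV-B zone 2 against zone 1 called 0 of the 150 genes and 0 of all genes (0% in either direction), with 2 members and 3129 of all genes at an unadjusted p under 0.05. DESeq2 called no member, where 0.502% of all genes were called lower and 3.4% higher. All 3 parts of the pattern held in 74 of the 150 genes, against 1.2% of the 13885 and 0.836% of the 23317 genes tested. That count was 47 with UV-B zone 2 replicate 2 left out and 49 with UV-B zone 3 replicate 3 left out. It was 87 with TMM-scaled library totals and 51 on unique reads alone.

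**Figure D3:**
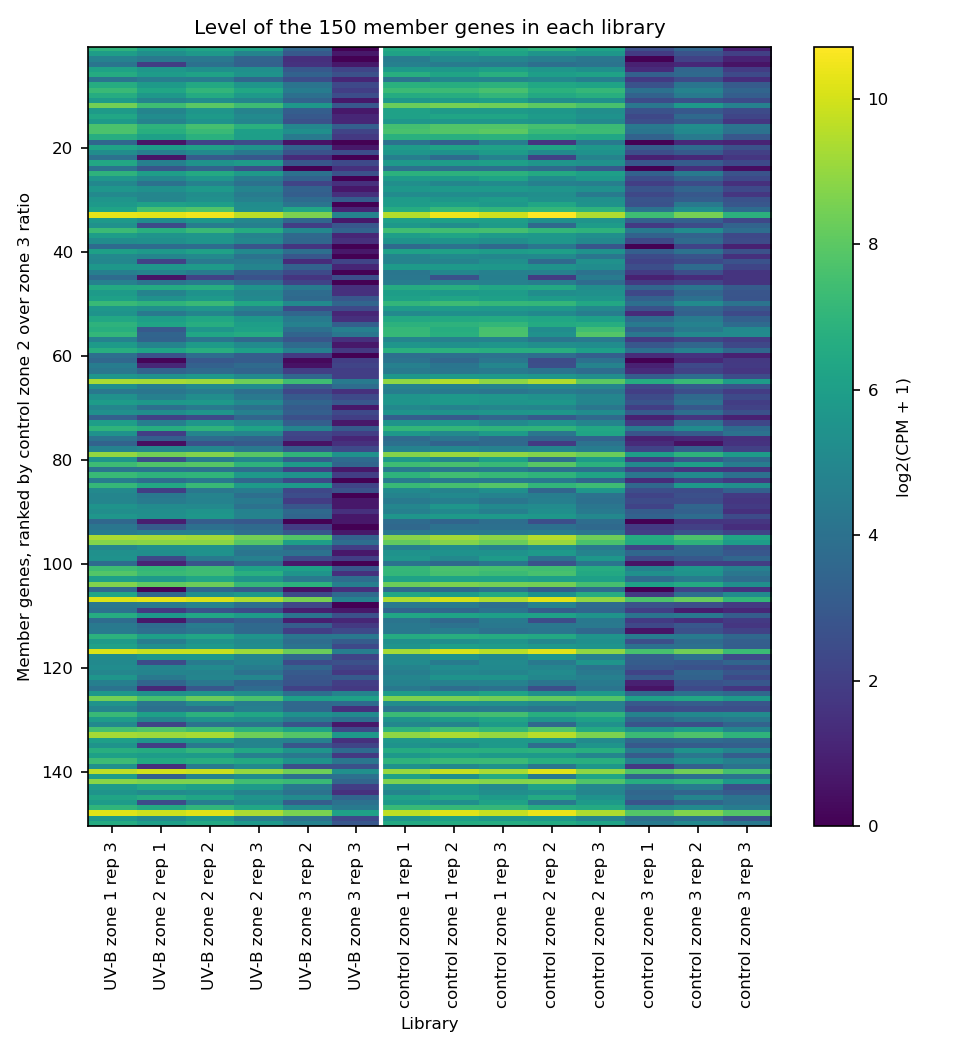
Level of each of the 150 genes, 1 per row and ranked from the highest control ratio of zone 2 over zone 3 at the top, in each library (columns), as log2(CPM + 1) by colour. UV-B libraries stand left of the white line and control libraries right of it; both zone 3 blocks are darker than the zone 1 and zone 2 blocks, and scattered rows are also dark in UV-B zone 2 replicate 1.

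Set beside control levels in the same zone, UV-B levels of the 150 genes were close. The median ratio of the UV-B over the control mean was 0.98 in zone 1, 0.89 in zone 2 and 0.88 in zone 3, against 1.04, 1.01 and 1.00 over the 13885 genes with a comparable level. In zone 2 the UV-B mean was lower than the control mean in 115 of the 150 genes, against 48.3% of the 13885. All UV-B zone 2 libraries lay below both control zone 2 libraries in 7 of the 150, against 3.47% of the 13885, which is near the background. These ratios were not tested, since the control levels had chosen the genes.

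The highest ratios belonged to genes without a symbol. First in rank was GRMZM2G003368 (chromosome 1, 120854789 to 120856675, on the build of the deposited table, which it does not name). It had 121 CPM in UV-B zone 1, 66.0, 78.05 and 70.9 CPM in UV-B zone 2 replicates 1 to 3, and 10.5 and 0 CPM in UV-B zone 3 replicates 2 and 3. Control levels were 88.7, 114 and 92.5 CPM in zone 1, 120 and 73.5 CPM in zone 2, and 4.98, 10.3 and 0.80 CPM in zone 3. All zone 1 and zone 2 libraries of this gene were far above all zone 3 libraries in both treatments. Its UV-B log2 change of zone 3 against zone 2 was -3.44 ± 0.83 (SE), with an edgeR adjusted p of 0.15.

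One pair of members were direct neighbours in the gene order of the table, GRMZM2G089517 and GRMZM2G352274 on chromosome 5 (179240777 to 179243919 and 179311955 to 179314772). GRMZM2G352274 had 47.7, 39.6 and 39.5 CPM in UV-B zone 2 and 6.64 and 3.59 CPM in UV-B zone 3. GRMZM2G089517 had 14.8, 24.8 and 15.1 CPM in UV-B zone 2 and 3.64 and 1.79 CPM in UV-B zone 3. Both genes had similar log2 changes of UV-B zone 3 against zone 2, of -2.94 ± 0.39 and -2.61 ± 0.50 (SE) and edgeR adjusted p of 0.12 for each. Their DESeq2 adjusted p were 3.0e-07 and 0.0012. This pair was singled out after the values were seen.

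Among the named genes, CSLD1 (GRMZM2G015886, chromosome 10, 22270074 to 22274479) had the highest control ratio, 7.34. It encodes a cellulose synthase-like D protein, and mutants of this gene in maize have defects in epidermal cell division and leaf width. CSLD1 had 94.5 CPM in UV-B zone 1, 60.2, 70.3 and 43.7 CPM in UV-B zone 2 replicates 1 to 3, and 9.43 and 5.38 CPM in UV-B zone 3 replicates 2 and 3. In controls it had 105, 75.9 and 108 CPM in zone 1, 63.3 and 71.7 CPM in zone 2, and 8.97, 11.7 and 4.34 CPM in zone 3. The zone 2 and zone 3 libraries were well apart in both treatments, and UV-B zone 2 replicate 3 was the lowest of the zone 2 libraries. The UV-B log2 change was -2.90 ± 0.43 (SE), with an adjusted p of 0.12 in edgeR and 1.8e-06 in DESeq2. Of the other 23 genes for cellulose synthases and related enzymes, none was a member, and the 21 tested genes of the list had a median UV-B log2 change of 0.78, against -0.08 over all genes.

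The transcription factor bHLH84 (GRMZM2G159456, chromosome 1, 15267735 to 15269173) came next, with a control ratio of 7.29. It had 16.8 CPM in UV-B zone 1, 23.02, 22.0 and 11.1 CPM in UV-B zone 2, and 4.72 and 1.20 CPM in UV-B zone 3. Control levels were 16.2, 30.1 and 28.2 CPM in zone 1, 31.7 and 23.5 CPM in zone 2, and 2.49, 4.67 and 1.61 CPM in zone 3. Unlike most members it was not lower in zone 2 than in zone 1 by its means in either treatment. Its UV-B log2 change was -2.48 ± 0.67 (SE), with an adjusted p of 0.17 in edgeR and 0.014 in DESeq2. The other transcription factor, EREB171 of the AP2/ERF family (GRMZM2G013657), had 91.5, 130 and 80.8 CPM in UV-B zone 2 and 34.5 and 19.7 CPM in UV-B zone 3. Its log2 change was -1.86 ± 0.41 (SE), with an adjusted p of 0.14 in edgeR and 0.0024 in DESeq2, and it was -2.65 on unique reads alone. Of 387 named transcription factor genes, 2 were members (0.517%, against 0.383% of all genes), and the 276 tested had a median UV-B log2 change of -0.07.

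Both cyclins were lower in UV-B zone 3 than in UV-B zone 2 by similar amounts. Cyclins bind cyclin-dependent kinases and drive steps of the cell cycle. cyc3 (GRMZM2G073671, chromosome 6, 82783469 to 82787296) had 101 CPM in UV-B zone 1, 67.0, 111 and 63.8 CPM in UV-B zone 2, and 20.2 and 2.39 CPM in UV-B zone 3. In controls it had 109, 107 and 115 CPM in zone 1, 94.8 and 79.0 CPM in zone 2, and 9.46, 20.3 and 6.43 CPM in zone 3. Its zone 1 levels were even across libraries and treatments, while UV-B zone 3 replicate 3 was far below replicate 2. The UV-B log2 change was -2.65 ± 0.73 (SE), with an adjusted p of 0.18 in edgeR and 0.0080 in DESeq2.

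cyclin9 (GRMZM2G017081, chromosome 5, 59835714 to 59840942) had 119 CPM in UV-B zone 1, 74.96, 102 and 63.9 CPM in UV-B zone 2, and 25.3 and 8.37 CPM in UV-B zone 3. Control levels were 118, 119 and 137 CPM in zone 1, 93.5 and 102 CPM in zone 2, and 19.9, 26.1 and 12.2 CPM in zone 3. The groups of zones 2 and 3 did not overlap in either treatment. The log2 change was -2.16 ± 0.53 (SE), with an adjusted p of 0.15 in edgeR and 0.0040 in DESeq2. Reads assigned to a single transcript made up only 0.99% of the counts of cyc3 and 1.96% of those of cyclin9, so their values are uncertain. On unique reads alone, cyc3 had a log2 change of -0.98 and cyclin9 one of -1.08. In the list of 28 cyclin and mitosis genes, 22 had negative and 6 positive UV-B log2 changes, with a median of -1.21. edgeR called none of them and DESeq2 called 11 lower, against 2.59% of all genes.

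The next 3 genes supply DNA synthesis. PCNA and pcna2 encode the sliding clamp that holds DNA polymerase on its template, and RNRS3 encodes a small subunit of ribonucleotide reductase, which makes deoxynucleotides. PCNA (GRMZM2G030523, chromosome 5, 214473507 to 214475861) had 165 CPM in UV-B zone 1, 135, 160.5 and 68.9 CPM in UV-B zone 2, and 66.9 and 6.57 CPM in UV-B zone 3. Control libraries of this gene had 138, 197 and 187 CPM in zone 1, 169.6 and 97.7 CPM in zone 2, and 25.9, 48.3 and 24.1 CPM in zone 3. The lowest UV-B zone 2 library and the highest UV-B zone 3 library nearly met. The log2 change was -1.63 ± 0.88 (SE), with an adjusted p of 0.38 in edgeR and 0.24 in DESeq2.

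RNRS3 (GRMZM2G323679, chromosome 2, 33266049 to 33267574) had 229 CPM in UV-B zone 1, 153, 166 and 107 CPM in UV-B zone 2, and 46.1 and 1.79 CPM in UV-B zone 3. Control levels were 137, 184 and 159 CPM in zone 1, 190.4 and 87.8 CPM in zone 2, and 40.4, 44.8 and 17.8 CPM in zone 3. Replicate 3 was the lowest library of its zone in both UV-B zone 2 and UV-B zone 3. The log2 change was -2.43 ± 0.97 (SE), with an adjusted p of 0.27 in edgeR and 0.30 in DESeq2. pcna2 (GRMZM2G108712) had 274, 318 and 140 CPM in UV-B zone 2 and 117 and 23.9 CPM in UV-B zone 3, again with replicate 3 lowest. Its log2 change was -1.75, and -1.12 on unique reads alone. Of 21 tested genes of the DNA replication list, 20 had negative UV-B log2 changes, with a median of -1.59. By symbol this list also took in RPP2A, which is in the ribosomal protein list too. edgeR called none and DESeq2 called 5 lower, against 2.59% of all genes.

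**Figure D4:**
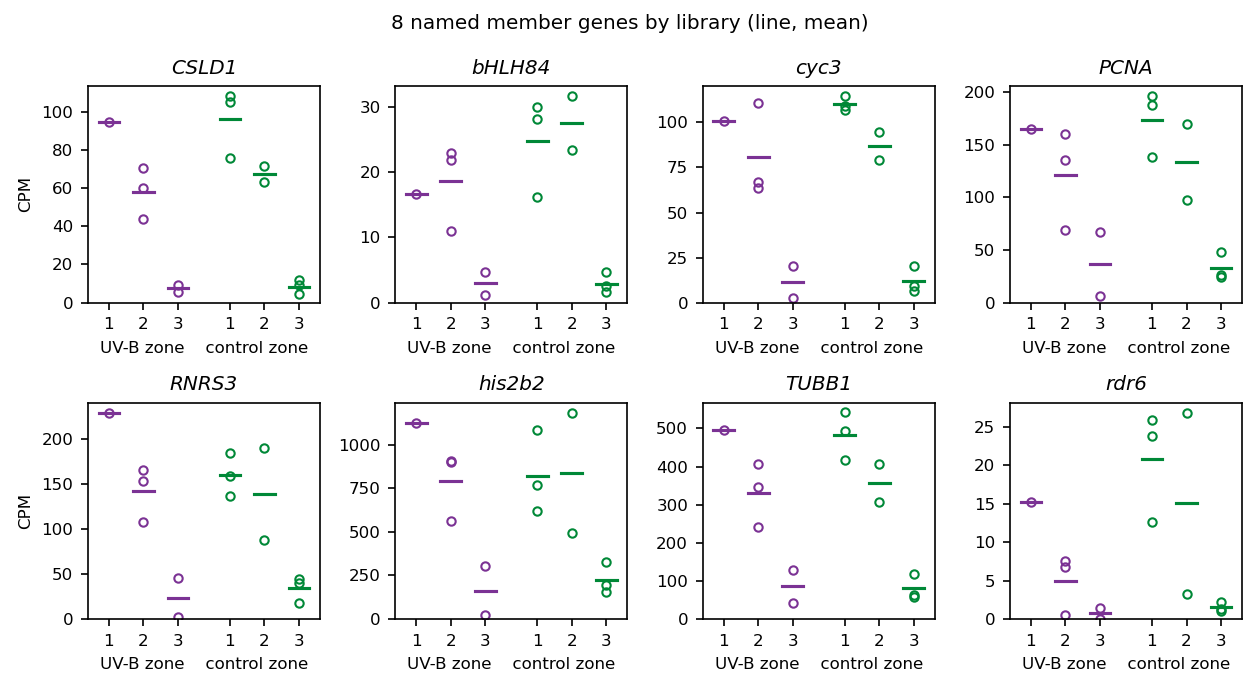
CPM of 8 named members in each library, with UV-B zones 1 to 3 in purple left of control zones 1 to 3 in green; each circle is 1 library and each line the mean of its group. CSLD1 has tight groups that stand apart, PCNA nearly meets between UV-B zones 2 and 3 at 68.9 and 66.9 CPM, and rdr6 has a wide spread in zone 2 of both treatments.

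The 5 histone genes were his2b2 for histone H2B, H3C2_2 and H3C2_6 for histone H3, H4C7_2 for histone H4 and hon101 for the linker histone H1. H3C2_6 and hon101 fell outside the rule for named genes and are named because the group is small. Histones package newly made DNA, and most are made during DNA synthesis. his2b2 (GRMZM2G119071, chromosome 4, 63118801 to 63120057) had 1124 CPM in UV-B zone 1, 909, 899 and 563 CPM in UV-B zone 2, and 302 and 22.7 CPM in UV-B zone 3. In control leaves his2b2 had 618, 1081 and 767 CPM in zone 1, 1183 and 491 CPM in zone 2, and 193, 329.5 and 156 CPM in zone 3. UV-B zone 3 replicate 3 was far below replicate 2, and control zone 2 replicate 3 was well below replicate 2. The log2 change was -2.22 ± 1.03 (SE), with an adjusted p of 0.32 in edgeR and 0.098 in DESeq2.

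The other 4 histone genes had the same order of libraries. H4C7_2 had 1230, 1062 and 672 CPM in UV-B zone 2 and 361 and 25.7 CPM in UV-B zone 3. H3C2_2 had 612, 582 and 342 CPM in UV-B zone 2 and 225 and 8.96 CPM in UV-B zone 3. In all 5 genes the UV-B zone 2 libraries lay above those of zone 3, the log2 changes lay between -2.30 and -2.06, and neither edgeR nor DESeq2 called any. In all 5, control zone 2 replicate 2 was 2.20 to 2.56 times replicate 3, by CPM plus 1. The 5 are part of a larger family: 14 of the 34 histone genes met the rule before the limit of 150 was applied. In 33 of the 34, UV-B zone 2 libraries lay above those of zone 3, against 20.5% of all genes tested. The median log2 change over the family was -1.82, with 4 called lower by DESeq2, against 2.59% of all genes, and none by edgeR. On unique reads alone, the log2 change of hon101 was -1.05.

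Chromatin factors among the members were nfd101, nfd106 and ada2. Both nfd genes are named as nucleosome and chromatin assembly factors of group D, and ada2 as an adaptor of histone acetyltransferase complexes. nfd101 (GRMZM2G066528, chromosome 7, 146931997 to 146933950) had 1283 CPM in UV-B zone 1, 1229, 1419 and 774 CPM in UV-B zone 2, and 386 and 26.3 CPM in UV-B zone 3. In control leaves nfd101 had 712, 1382 and 951 CPM in zone 1, 1674 and 665 CPM in zone 2, and 168, 359 and 117 CPM in zone 3. As in the histone genes, replicate 3 was the lowest library of both UV-B zone 2 and UV-B zone 3. The log2 change was -2.40 ± 1.08 (SE), with an adjusted p of 0.31 in edgeR and 0.27 in DESeq2, and only 0.44% of its counts were unique to a transcript. On those unique reads alone, the log2 change was -3.04.

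ada2 (GRMZM5G815323) had 18.5, 26.5 and 14.0 CPM in UV-B zone 2 and 4.72 and 0 CPM in UV-B zone 3. Its log2 change was -2.71 ± 0.84 (SE), with an adjusted p of 0.20 in edgeR and 0.017 in DESeq2. nfd106 (GRMZM2G125648) had 396, 393 and 173 CPM in UV-B zone 2 and 150.04 and 10.8 CPM in UV-B zone 3. Of 73 tested chromatin factor genes, 67 had negative UV-B log2 changes, with a median of -0.65, so the 3 members stood at the steep end of a list whose typical change was smaller.

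The beta-tubulins TUBB1 and TUB8 build microtubules, which form the spindle and guide the new wall. TUBB1 (GRMZM2G164696, chromosome 1, 2035660 to 2037950) had 496 CPM in UV-B zone 1, 345, 406 and 241 CPM in UV-B zone 2, and 129 and 43.0 CPM in UV-B zone 3. Control levels of TUBB1 were 416, 543 and 492 CPM in zone 1, 406 and 308 CPM in zone 2, and 63.3, 119 and 58.7 CPM in zone 3. The zone 2 and zone 3 libraries did not overlap in either treatment. The log2 change was -1.91 ± 0.60 (SE), with an adjusted p of 0.21 in edgeR and 0.019 in DESeq2. TUB8 (GRMZM2G472945) had 34.95, 39.2 and 27.0 CPM in UV-B zone 2 and 15.2 and 1.79 CPM in UV-B zone 3. The family as a whole was divided: 8 of the 15 had negative and 7 positive UV-B log2 changes, with a median of -0.20. Unique reads made up 3.25% of the counts of TUBB1 and 9.73% of those of TUB8, so reads of related tubulins may be divided between them. On unique reads alone, the log2 change was -0.86 for TUBB1.

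Gene lists without a member varied in direction along the UV-B leaf. The median UV-B log2 change of zone 3 against zone 2 was 1.51 over 27 tested photosynthesis genes, 1.16 over 11 expansin and xyloglucan enzyme genes and 0.96 over 19 aquaporin genes. It was -0.28 over 56 ribosomal protein genes, -0.90 over 20 genes of the growth-regulating factor list, which by symbol also took in GF14 genes, and -1.57 over 5 tested meristem and ligule genes. edgeR called none of these genes. DESeq2 called 9 photosynthesis, 4 expansin and xyloglucan enzyme, 5 aquaporin and 1 ribosomal protein genes higher, against 3.13% of all genes, and 4 of the growth-regulating factor list lower, against 2.59% of all genes. The summed level of the 28 photosynthesis genes was 5676 to 12168 CPM in UV-B zone 3 and 1474 to 5473 CPM in UV-B zone 2, and 5874 to 13235 CPM in control zone 3 and 2592 to 3452 CPM in control zone 2. One gene of this list was at 0 in each of these groups. The 8 meristem and ligule genes summed to at most 3.74 CPM in all zone 2 and zone 3 libraries, and 6 of them were at 0 in UV-B zone 3. Their sums were 1.79 to 3.74 CPM in UV-B zone 2 and 2.14 to 3.59 CPM in UV-B zone 3. These sums overlapped, so the median change of -1.57 rests on few reads. The 18 genes of the stomatal lineage and epidermis, none of them at 0 in any group, summed to 1083 to 1576 CPM in UV-B zone 3 and 1014 to 1388 CPM in UV-B zone 2. The 26 genes of the secondary wall and vascular tissue summed to 1309 to 1783 CPM in UV-B zone 3, with 5 of them at 0, and to 728 to 907 CPM in UV-B zone 2, also with 5 at 0. The part of these tissues in the lower zone 3 levels of the 150 genes was not tested.

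Within zone 2 the 150 genes did not all vary in the same way. In 23 of them the level in UV-B zone 2 replicate 1 (CPM plus 1) was at most 1/3 of the lower of the other UV-B zone 2 libraries. This split was made after the values were seen and is described without a test. The median of these 23 was 2.96, 19.1 and 21.6 CPM in UV-B zone 2 replicates 1 to 3, and 3.86 and 3.59 CPM in UV-B zone 3 replicates 2 and 3. In UV-B zone 2 replicate 1 these genes were at the level of zone 3. The other 127 genes had medians of 40.1, 50.6 and 31.9 CPM in UV-B zone 2 and 11.6 and 2.99 CPM in UV-B zone 3.

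The 2 control zone 2 libraries, which helped to choose the members but played no part in this split, also differed between the 23 and the 127. In the 23 genes the control median was 32.8, 26.7 and 39.5 CPM in zone 1, 11.6 and 45.5 CPM in zone 2 replicates 2 and 3, and 2.49, 4.67 and 8.68 CPM in zone 3. In the other 127 genes it was 53.2, 55.7 and 57.3 CPM in zone 1, 49.0 and 39.7 CPM in zone 2, and 7.47, 12.3 and 5.30 CPM in zone 3. Control zone 2 replicate 2 was lower than replicate 3 in 23 of the 23 genes, with a median ratio of 0.31, and in 28 of the 127, with a median ratio of 1.36. The choice of members used the mean of both control zone 2 libraries and required the lower one to exceed zone 3. A gene low in either library could thus become a member only if the other was high enough. The order of these libraries is therefore given as a description and not as a separate check.

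**Figure D5:**
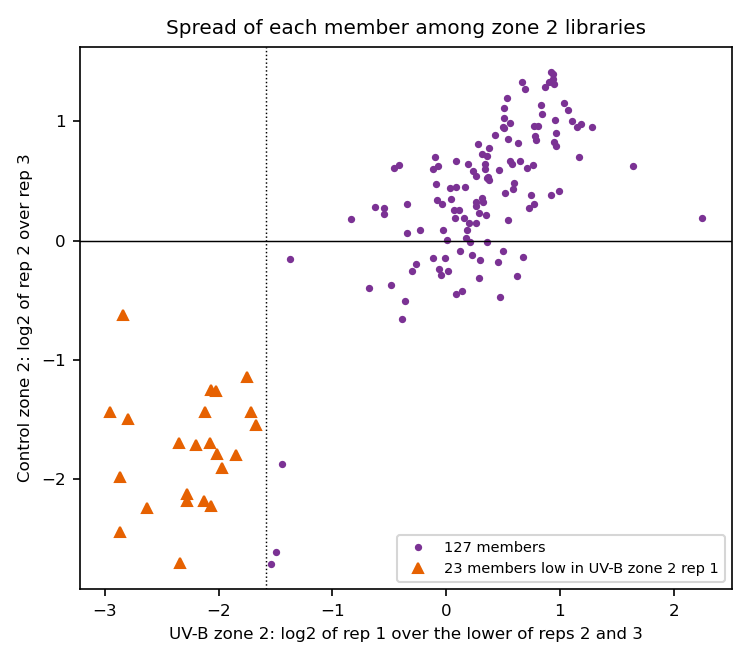
Each of the 150 genes by its log2 ratio of UV-B zone 2 replicate 1 over the lower of replicates 2 and 3 (horizontal axis) and its log2 ratio of control zone 2 replicate 2 over replicate 3 (vertical axis), both of CPM plus 1. The 23 genes left of the dotted line, at a ratio of 1/3, all lie below 0 on the vertical axis, and 3 further genes lie just right of the line and low.

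The border of the 23 is not sharp. The last gene inside was GRMZM2G172581 with a UV-B ratio of 0.31, and the next outside were GRMZM2G360949, GRMZM2G073581 and GRMZM2G095326 with 0.34, 0.35 and 0.37. These 3 also had low control ratios of replicate 2 over replicate 3, of 0.15, 0.16 and 0.27. The same property was found in 168 of the 13885 genes with a comparable level (1.21%), against 15.3% of the members. Of these 168, 167 also had a lower control zone 2 replicate 2. The share of all 13885 genes with that control order is not given. A low UV-B zone 2 replicate 1 is therefore shared with genes outside the set, though it was more frequent among the members. The photosynthesis genes summed to 5473 CPM in UV-B zone 2 replicate 1, against 3354 and 1474 CPM in replicates 2 and 3, and to 3452 and 2592 CPM in control zone 2 replicates 2 and 3. The library in which the 23 genes were low was the one with the higher photosynthesis sum in both treatments, and its part in the result was not tested.

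With UV-B zone 2 replicate 1 left out, all remaining UV-B zone 2 libraries lay above those of zone 3 in 147 of the 150 genes. The share of all genes is not given for this smaller set, and fewer libraries make overlap less likely for any gene. The split itself favours overlap of UV-B zones 2 and 3 among the 23, so overlap and calls are not compared between the 23 and the 127. The gene with the most negative fitted change of all 150, GRMZM2G004949, was one of the 23: it had 0.84, 7.99 and 6.74 CPM in UV-B zone 2 and 0 and 0.60 CPM in UV-B zone 3. Its log2 change of -4.77 ± 1.58 (SE), with an edgeR adjusted p of 0.22, rests on few reads.

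The only named gene of the 23 was rdr6 (GRMZM2G145201, chromosome 3, 102532882 to 102536036). Its Arabidopsis namesake is an RNA-dependent RNA polymerase that makes double-stranded RNA for small interfering RNAs. rdr6 had 15.2 CPM in UV-B zone 1, 0.53, 7.49 and 6.74 CPM in UV-B zone 2, and 1.50 and 0 CPM in UV-B zone 3. In control leaves rdr6 had 23.8, 12.7 and 25.8 CPM in zone 1, 3.28 and 26.8 CPM in zone 2, and 1.00, 1.36 and 2.25 CPM in zone 3. UV-B zone 2 replicate 1 lay between the zone 3 libraries, and control zone 2 replicate 2 was nearer to zone 3 than to control zone 2 replicate 3. The UV-B log2 change was -2.24 ± 1.28 (SE), with an adjusted p of 0.40 in edgeR and 0.30 in DESeq2.

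Outside the 23, the genes with overlap between UV-B zones 2 and 3 were the 4 genes GRMZM2G132547, GRMZM2G073581, GRMZM2G162884 and GRMZM2G095326. GRMZM2G132547 had 186, 213.6 and 38.3 CPM in UV-B zone 2 and 80.8 and 1.20 CPM in UV-B zone 3, so each zone had 1 low library, replicate 3 in both. GRMZM2G073581 was the 1 gene with a positive fitted change, of 0.08, with 0.53, 3.31 and 5.57 CPM in UV-B zone 2 and 2.14 and 4.78 CPM in UV-B zone 3. GRMZM2G162884 had 3.17, 4.46 and 10.7 CPM in UV-B zone 2 and 5.14 and 2.99 CPM in UV-B zone 3. GRMZM2G095326 had 9.08, 26.4 and 36.3 CPM in UV-B zone 2 and 14.6 and 14.9 CPM in UV-B zone 3, so that replicate 1 of zone 2 was its lowest UV-B library. These 4 genes were named after their values were seen.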

How the data were processed

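Poly-A RNA was sequenced from stranded libraries, per the labels' protocols. The authors deposited read counts per transcript, as total and unique reads, per the file headers. How reads were aligned, and to which build, is not given in the sources used here. Values in 21 columns for 3 libraries that match no sample were not used. Total counts of 62892 transcripts were summed to 39145 genes. RefSeq records (assembly Zm-B73-REFERENCE-NAM-5.0) gave symbols and nothing else. Symbols filled the gene lists, so a list can hold genes of another role. Members and lists were chosen with earlier results of these data known.

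UV-B libraries over 1000000 reads were fitted by zone with edgeR 4.0.16 in R 4.3.3 (filterByExpr, TMM scaling, two-sided quasi-likelihood test, Benjamini-Hochberg adjustment, threshold 0.05). UV-B zone 1 has 1 library, assumed to vary like the others. DESeq2 1.42.0 on the same counts gave no adjusted p for 2261 genes. The scripts were tested on simulated data. Named genes had a symbol and were the 10 with the highest control ratio, the 2 with the highest control zone 2 level per list, and the 5 with the largest and the 5 with the smallest UV-B fall. A promoter search was not run.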

Additional observations from a re-analysis of the deposited data

How the results depend on the processing

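Counts of calls depended on the fit. For UV-B zone 3 against zone 2, where the main test called 0 genes, 1333 genes and 87 members were called by DESeq2, 1637 and 80 by the fit of all usable libraries in 6 groups, 888 and 76 with the shallow UV-B zone 3 replicate 1 kept (2.04% of genes lower), and 332 and 31 with no filter (0.541% lower). Leaving out each UV-B library gave 0 to 1 genes and 0 members. For UV-B zone 2 against zone 1, again 0 in the main test, the counts over all genes were 909, 758, 208 and 19 in the same order, with 0 members. DESeq2 size factors and unique reads gave 0 calls in both comparisons. Zones share replicate numbers, but the labels do not say that a number marks the same leaves, day or batch. Deviations of same-numbered libraries correlated by 0.41 and 0.53 in the 2 UV-B pairs and by 0.08 to 0.66 in the 7 control pairs. Control zone 2 replicate 2 was closer to control zone 3 replicate 1 (0.20) than to replicate 2 (0.08), so pairing was not assumed. A fit with the number as a replicate block left almost no degrees of freedom, so its spread is poorly estimated. It called 6010 genes and 148 members for zone 3 against zone 2 (14.5% of genes lower). For zone 2 against zone 1 it called 3853 genes and 93 members (7.18% lower). Leaving out the single UV-B zone 1 library gives no value for zone 2 against zone 1. No member was called higher in any of these fits. All 17 genes of the naming rule kept a negative change under each of the 13 alternatives, and the cause of the unequal counts was not tested.

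With looser thresholds (ratios of 2, and 0.5 to 2), 124 members held their level from UV-B zone 1 to 2 and 119 met the whole pattern. Leaving out single UV-B libraries gave 52 to 91 members that held their level, 47 to 88 with the whole pattern, 90 to 134 with the ratio of 3, and 125 to 147 with no overlap. Shares over all genes are not given for these settings, so the counts show only how the main counts moved. On unique reads, 85 of the 150 members met the rule. Unique reads also drop reads shared by transcripts of 1 gene. Depth limits UV-B zone 3 most.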
